A study of Homo sapiens with 24 samples.

Results

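ANKRD11 encodes ANCO1, the protein depleted by the shANCO1 hairpin, and it is described here together with its close relative ANKRD12, the p160 coactivators NCOA1, NCOA2 and NCOA3 that ANCO1 can bind, and the histone deacetylases HDAC3, HDAC4 and HDAC5. A region of a deposited table was counted for 1 of these 8 genes where the authors' annotation named the gene as overlapped by the region or as its neighbour on the left or right. This gave 60 of 50284 regions for shANCO1 against shCTRL in 10A and 48 of 44790 in DCIS. It also gave 39 of 28607 regions marked over input in 10A shANCO1, 18 of 15490 in 10A shCTRL, 20 of 16692 in DCIS shANCO1 and 11 of 15482 in DCIS shCTRL. No region was counted for more than 1 of the 8 genes.

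H3K27ac was measured by ChIP-seq in 10A (MCF10A), an immortalized and non-tumorigenic human mammary epithelial line, and in DCIS (MCFDCIS), a transformed descendant of 10A, recovered after growth in mice, in which the stage before invasive ductal cancer is studied. Cells of each line carried a lentiviral hairpin, either shANCO1 or shCTRL, the latter a hairpin against GFP, and each of the 4 combinations had 3 immunoprecipitated and 3 input libraries, 24 in all. The shANCO1 cells of this experiment came from 1 hairpin against the gene, in each line, so an effect of that hairpin other than depletion of ANCO1 cannot be told apart from the depletion. The labels do not say whether the 3 libraries of a group came from separate cultures, so the FDR measures the spread between these libraries, which may be technical. All groups grew in the same medium with horse serum, EGF, hydrocortisone, insulin and cholera toxin.

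p160 coactivators are recruited to DNA by nuclear receptors and other transcription factors, and they bring acetyltransferases such as EP300, CREBBP and KAT2B to the chromatin. ANCO1 is a large nuclear protein with ankyrin repeats that binds the p160 proteins and recruits histone deacetylases, which remove acetyl groups from histones. NCOA3, also named AIB1, is known as an oncogenic coactivator in breast cancer. HDAC3 is a class I deacetylase that works in nuclear corepressor complexes, and HDAC4 and HDAC5 are class IIa deacetylases that shuttle between nucleus and cytoplasm. Acetylation of lysine 27 of histone H3 is a mark of active promoters and enhancers.

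The tables give 1 line per region for whole groups, so the values of single libraries, the read depth and the spread between replicates were unknown, and the csaw FDR of the authors is the only test behind each statement. A log2 fold change is that of 1 representative window of a region, the first group over the second, and a region was called where its FDR was under 0.05. Over all regions the median log2 fold change was 0.76 in 10A and 0.52 in DCIS, so a gain is read against that shift, and how much of the shift came from the scaling of the libraries was not tested. Among start sites of basal mammary markers, 3 of 8 were marked in 10A shCTRL and 6 of 8 in each of the other groups, KRT5 in every group and KRT14 in none. General epithelial markers were marked at 2 to 5 of 6 start sites. Of the luminal hormone receptor list GATA3 was marked in 3 groups and FOXA1 in both shANCO1 groups, while ESR1 and PGR were marked in none. None of the leukocyte or endothelial markers had a marked start, and of the 5 fibroblast markers DCN had one in 10A shANCO1.

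The sequences below are from the places on which the results at ANKRD11, NCOA3 and HDAC4 turn. Those named intron are the central 300 bases of the region with the lowest FDR for that gene and line, or, for the second ANKRD11 intron, of the region with the largest change among those called in DCIS. None of these windows overlapped an annotated exon. Those named promoter are the bases before the RefSeq start (build GRCh38.p14), up to 250, with any bases in an exon of a neighbouring gene left out. Capitals mark letters of an AP-1 site (TGACTCA or TGAGTCA), a TEAD site (CATTCC or GGAATG) or a GC box (GGGCGG or CCGCCC), each pair being the same motif on the 2 strands.
ANKRD11 intron, chr16:89442651-89442950, plus strand: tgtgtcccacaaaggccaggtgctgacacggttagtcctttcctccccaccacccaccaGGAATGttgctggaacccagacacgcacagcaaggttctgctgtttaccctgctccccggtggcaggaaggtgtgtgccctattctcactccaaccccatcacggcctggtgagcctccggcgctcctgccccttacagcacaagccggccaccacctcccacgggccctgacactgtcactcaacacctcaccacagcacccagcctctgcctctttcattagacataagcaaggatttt
ANKRD11 intron, chr16:89476901-89477200, plus strand: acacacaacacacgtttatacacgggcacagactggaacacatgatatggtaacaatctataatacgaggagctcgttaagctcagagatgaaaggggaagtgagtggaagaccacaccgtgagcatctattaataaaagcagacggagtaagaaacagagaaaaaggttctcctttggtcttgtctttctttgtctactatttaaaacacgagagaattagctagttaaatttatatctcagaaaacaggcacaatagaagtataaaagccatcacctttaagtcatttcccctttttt
ANKRD11 promoter, chr16:89490562-89490718, minus strand: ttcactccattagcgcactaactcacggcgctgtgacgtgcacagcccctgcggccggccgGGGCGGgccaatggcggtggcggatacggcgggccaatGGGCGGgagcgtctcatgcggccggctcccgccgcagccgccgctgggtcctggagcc
NCOA3 promoter, chr20:47501637-47501886, plus strand: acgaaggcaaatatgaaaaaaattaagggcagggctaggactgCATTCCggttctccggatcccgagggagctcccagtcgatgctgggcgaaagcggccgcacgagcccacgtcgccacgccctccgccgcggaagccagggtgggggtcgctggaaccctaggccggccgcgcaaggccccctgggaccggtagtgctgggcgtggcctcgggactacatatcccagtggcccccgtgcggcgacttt
HDAC4 intron, chr2:239279851-239280150, plus strand: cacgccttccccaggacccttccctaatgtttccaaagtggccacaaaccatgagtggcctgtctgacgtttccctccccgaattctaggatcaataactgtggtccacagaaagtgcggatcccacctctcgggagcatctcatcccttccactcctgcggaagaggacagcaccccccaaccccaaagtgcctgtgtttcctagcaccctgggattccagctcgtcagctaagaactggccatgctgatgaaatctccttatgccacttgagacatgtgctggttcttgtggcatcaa

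None of these 5 sequences held the AP-1 letters, which were present in 11.1% of the central 300 bases of all 10A regions and 9.4% of those in DCIS. The first ANKRD11 intron held 1 TEAD site, as did 17.4% of such windows in DCIS, and the NCOA3 promoter held 1, as did 11.9% of all RefSeq promoters over 250 bases. The 157 bases of the ANKRD11 promoter held 2 GC boxes, a motif found in 37.3% of all RefSeq promoters over that length. RefSeq promoters were at hand for 6 of the 8 genes, the exceptions being NCOA2 and HDAC5.

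H3K27ac rose at 22 of the 60 regions in 10A shANCO1 cells and at 13 of the 48 in DCIS shANCO1 cells, and no region of the 8 genes fell in either line. The shares, 36.7% in 10A and 27.1% in DCIS, stand beside 43.6% and 23.6% of all regions of these tables called up. Over all regions 0.225% were called down in 10A and 4.86% in DCIS. The median log2 fold change over the regions of the 8 genes was 0.71 in 10A and 0.56 in DCIS, each close to the median of all regions in that line. In 10A, 20 of the 22 called regions lay above the median of all regions and none lay 1 log2 unit above it. In DCIS all 13 lay above it and 8 of them by at least 1 unit, of which 5 were at ANKRD11 and 1 each at ANKRD12, NCOA3 and HDAC4.

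**Figure D1:**
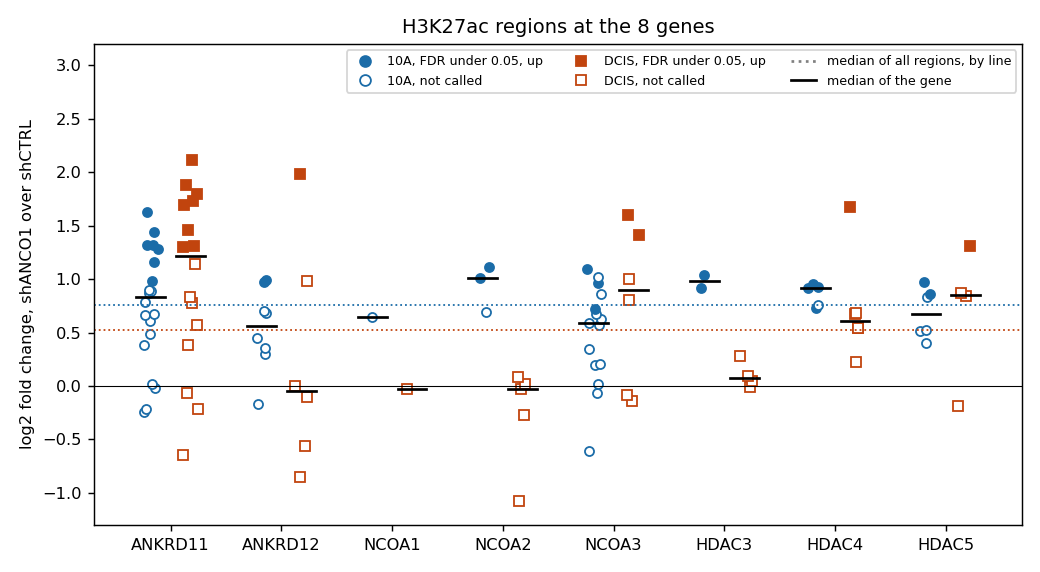
Log2 fold change of H3K27ac (vertical axis, shANCO1 over shCTRL) for every region at the 8 genes (horizontal axis), with 10A as circles and DCIS as squares, filled where called up, a black bar at each gene's median and dotted lines at the median of all regions, 0.76 in 10A and 0.52 in DCIS. ANKRD11 had the most regions and the most called regions in both lines, 7 of 20 in 10A and 8 of 16 in DCIS. These shares, 35% and 50%, stand beside 43.6% and 23.6% of all regions.

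ANKRD11 (ENSG00000167522, chr16:89267630-89490561, minus strand) gained H3K27ac inside the gene, with no region called at its start. In 10A, 7 of its 20 regions rose, and their median over all 20 was 0.83 with a range from -0.24 to 1.63. In DCIS, 8 of 16 rose, against 23.6% of all regions, with a median of 1.22 and a range from -0.65 to 2.11. Most of these 16 lay wholly in introns. Of all DCIS regions without a start within 1 kb, 30.1% were called up (median 0.72), and of those with one 7.99% (median 0.13). The gene thus had 35% of its regions called up in 10A, under the 43.6% of all regions, and 50% in DCIS.

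The far 3' part of ANKRD11 held most of the 10A gains. More than 150 kb downstream of the start, 5 of 6 regions rose in 10A, with log2 fold changes of all 6 between 0.90 and 1.63. In DCIS 4 of 7 rose there, with all 7 between 0.57 and 1.73. All regions were called up at 43.6% in 10A and 23.6% in DCIS, and the split at 150 kb was not tested. The region with the lowest FDR in 10A, chr16:89315201-89318200, had a log2 fold change of 1.28 (FDR 8.86e-05), with 24 of its 29 windows up. Of its 3000 bases, 87 are coding and 59 are untranslated exon of the MANE transcript, and the others are intron. The overlapping DCIS region, chr16:89315701-89317800, had 1.73 (FDR 0.000863), with 14 of 20 windows up. Relative to the median of all regions these gains were 0.52 in 10A and 1.20 in DCIS.

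Introns nearer to the start held the strongest DCIS gains. The lowest FDR of any region at the 8 genes in DCIS was at chr16:89442201-89443400, 47.8 kb downstream of the start, where the log2 fold change was 1.88 (FDR 2.62e-05) and 10 of 11 windows were up. The first ANKRD11 intron sequence printed above is the centre of that region. In 10A the overlapping region, chr16:89442101-89443500, had 0.67 (FDR 0.196) and none of its 13 windows was up. At chr16:89457901-89459400 the DCIS value was 1.80 (FDR 0.000952), whereas the 2 overlapping 10A regions had -0.24 (FDR 0.589) and 0.38 (FDR 0.448). Whether the lines differed at these places was not tested, because the tables hold no contrast between lines.

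The largest change at any of the 8 genes in DCIS was 13.5 kb downstream of the ANKRD11 start, in its second printed intron. There chr16:89476601-89477500 had a log2 fold change of 2.11 in DCIS (FDR 0.000489), and 6.9% of all DCIS regions had a value as high. The matching 10A region, chr16:89476701-89477400, rose by 1.32 (FDR 0.00745), though 1 of its 6 windows was up.

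The start of ANKRD11 was not called in either line. In 10A the region over the first exon, chr16:89488701-89490500, had 0.66 (FDR 0.0764), and the one just upstream, chr16:89490901-89491800, had 0.89 (FDR 0.0568). In DCIS the regions overlapping these had -0.65 (FDR 0.764) and -0.07 (FDR 0.975). The first of the DCIS regions, chr16:89488801-89489800, lay wholly in the intron, 474 bp from the nearest ANKRD11 start, and did not reach the first exon. The upstream 10A region also covers a start of SPG7, a mitochondrial protease gene transcribed in the opposite direction, and the upstream DCIS region lies 384 bp from one, so their acetylation cannot be assigned to 1 of the 2 genes. The authors' annotation gives a promoter letter to several regions deep inside ANKRD11. Of these chr16:89319101-89321400 in 10A covers an internal protein-coding start, whereas chr16:89315201-89318200 lies 2156 bp from the nearest one. By that annotation the promoter region with the lowest FDR was the far 3' one, 1.28 in 10A and 1.73 in DCIS. H3K27ac at the locus is not a measure of the knockdown, since the hairpin acts on the mRNA.

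**Figure D2:**
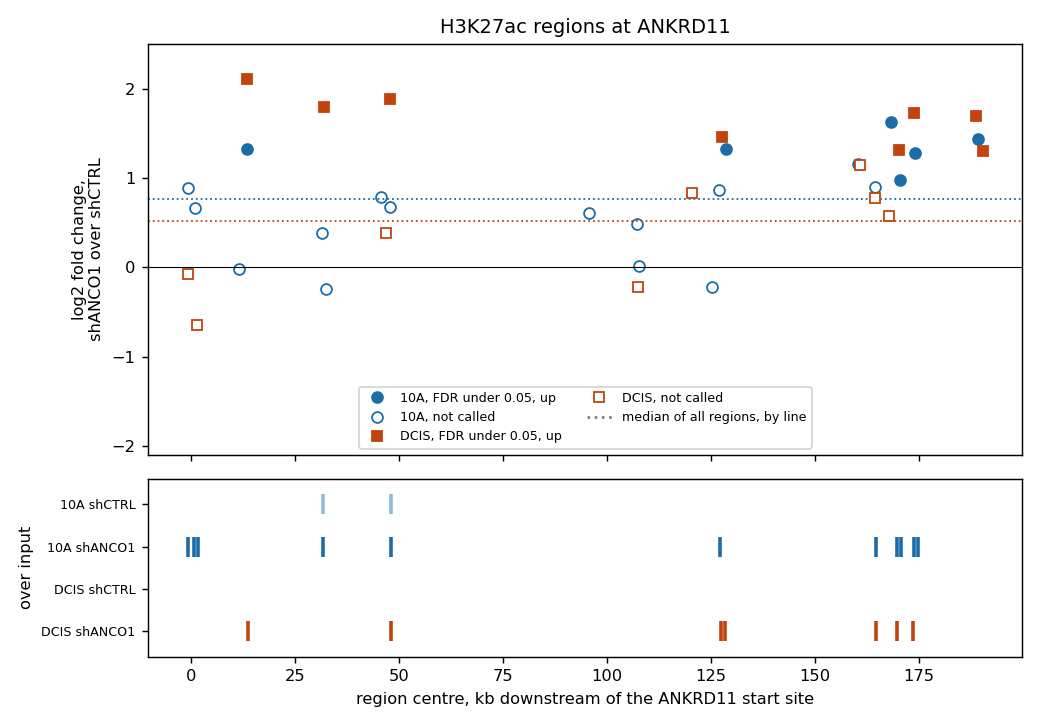
Top, log2 fold change of H3K27ac (shANCO1 over shCTRL) for ANKRD11 regions by the distance of their centre from the start (kb downstream), with 10A as circles, DCIS as squares, filled where called up, and dotted medians of all regions. Bottom, centres of the regions marked over input in each group, which number 2 in 10A shCTRL, 11 in 10A shANCO1, 0 in DCIS shCTRL and 7 in DCIS shANCO1.

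Marking over input at ANKRD11 came from other comparisons, which share the immunoprecipitated libraries with the direct test. In DCIS shCTRL no region of the gene was marked, and the nearest marked region lay 69340 bp from its start. In DCIS shANCO1, 7 regions covering 2.9 kb were marked, with log2 fold changes over input from 3.44 to 7.25, and 6 of the 7 overlapped a region called up in the direct comparison. In 10A shCTRL, 2 intronic regions covering 0.5 kb were marked, with 2.70 and 2.72. In 10A shANCO1, 11 regions covering 5.4 kb were marked, including 3 around the start, and 4 of the 11 overlapped a called region. One place, near chr16:89442401-89442700, was marked in both 10A groups and in DCIS shANCO1. Marking in 1 group and not in another rests on a threshold in each and does not test the difference.

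ANKRD12 (ENSG00000101745, chr18:9136228-9285985, plus strand) encodes a related ankyrin repeat protein that also binds p160 coactivators. Of its 8 regions in 10A 2 rose, and of its 6 in DCIS 1 rose, with medians of 0.57 and -0.05, both under the medians of all regions. The shares called up, 25% and 16.7%, were also under the 43.6% and 23.6% of all regions. The place called in both lines lay outside the gene model of GENCODE, 18.8 kb upstream of the start in 10A. It had 0.99 in 10A at chr18:9116001-9120000 (FDR 0.00915, 26 of 39 windows up) and 1.98 in DCIS at chr18:9116801-9117500 (FDR 0.00607, 2 of 6 windows up). The nearest protein-coding start is that of NDUFV2, a subunit gene of respiratory complex I. The other 10A region called, chr18:9101401-9104700, with 0.97 (FDR 0.0484), covers the NDUFV2 start. The region over the ANKRD12 start itself had 0.70 in 10A (FDR 0.0709) and -0.85 in DCIS (FDR 0.873). The authors' annotation thus counts for ANKRD12 places that GENCODE puts at NDUFV2, and both the called 10A regions were of that kind.

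The p160 genes had from 1 to 15 regions in 10A and from 1 to 6 in DCIS. NCOA1 (chr2:24491254-24770702), the founding p160 member, had 1 region in each line, over its start, with 0.65 in 10A (FDR 0.334) and -0.03 in DCIS (FDR 0.993). That start was marked over input in 10A shANCO1 alone among the 4 groups, over 0.2 kb.

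NCOA2 (chr8:70109782-70403808, minus strand), a coactivator of glucocorticoid and other nuclear receptors, rose in 10A at 2 of 3 regions and in DCIS at 0 of 5. Over all regions 43.6% were called up in 10A and 23.6% in DCIS, and with so few regions the counts do not set this gene apart. Its start region had 1.11 in 10A (FDR 0.0252, 10 of 28 windows up) and -0.27 in DCIS (FDR 0.856). An intronic region 87.5 kb downstream, chr8:70315301-70317300, had 1.01 in 10A (FDR 0.0024). The DCIS region sharing most bases with it had 0.02 (FDR 0.997). Another DCIS region of 300 bp, chr8:70317101-70317400, overlapped the end of the same 10A region and had -1.08 (FDR 0.115). That was the lowest value at any of the 8 genes in either line, and the region was the one of theirs with windows down. The NCOA2 start was marked over input in 10A shANCO1 and both DCIS groups but not in 10A shCTRL.

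NCOA3 (ENSG00000124151, chr20:47501887-47656877, plus strand) rose at 3 of 15 regions in 10A and at 2 of 6 in DCIS, with medians of 0.59 and 0.90. The shares called up were 20% and 33.3%, beside 43.6% and 23.6% of all regions. Among the regions called in 10A were the start, chr20:47500401-47504100, with 0.72 (FDR 0.00545), a value under the 0.76 of all regions, and an intron 108.8 kb downstream with 0.96 (FDR 0.00429). In DCIS an intron 63.4 kb downstream rose by 1.60 (FDR 0.00629), with all 4 windows up, where 10A had 0.86 (FDR 0.17). The other DCIS region called, with 1.41 (FDR 0.0314), lay beyond the 3' end of NCOA3 and had SULF2 as the gene of the nearest start.

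At the NCOA3 start the comparisons with input and the direct comparison did not give the same call in DCIS. The start was marked in DCIS shCTRL by 2 regions, with 7.10 and 5.07 over input, and no NCOA3 region was marked in DCIS shANCO1. The direct comparison at chr20:47501101-47503100 gave -0.08 (FDR 0.975), with none of 17 windows up or down. So a loss of marking at this start rests on the threshold of the comparison with input and was not called in the direct test.

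**Figure D3:**
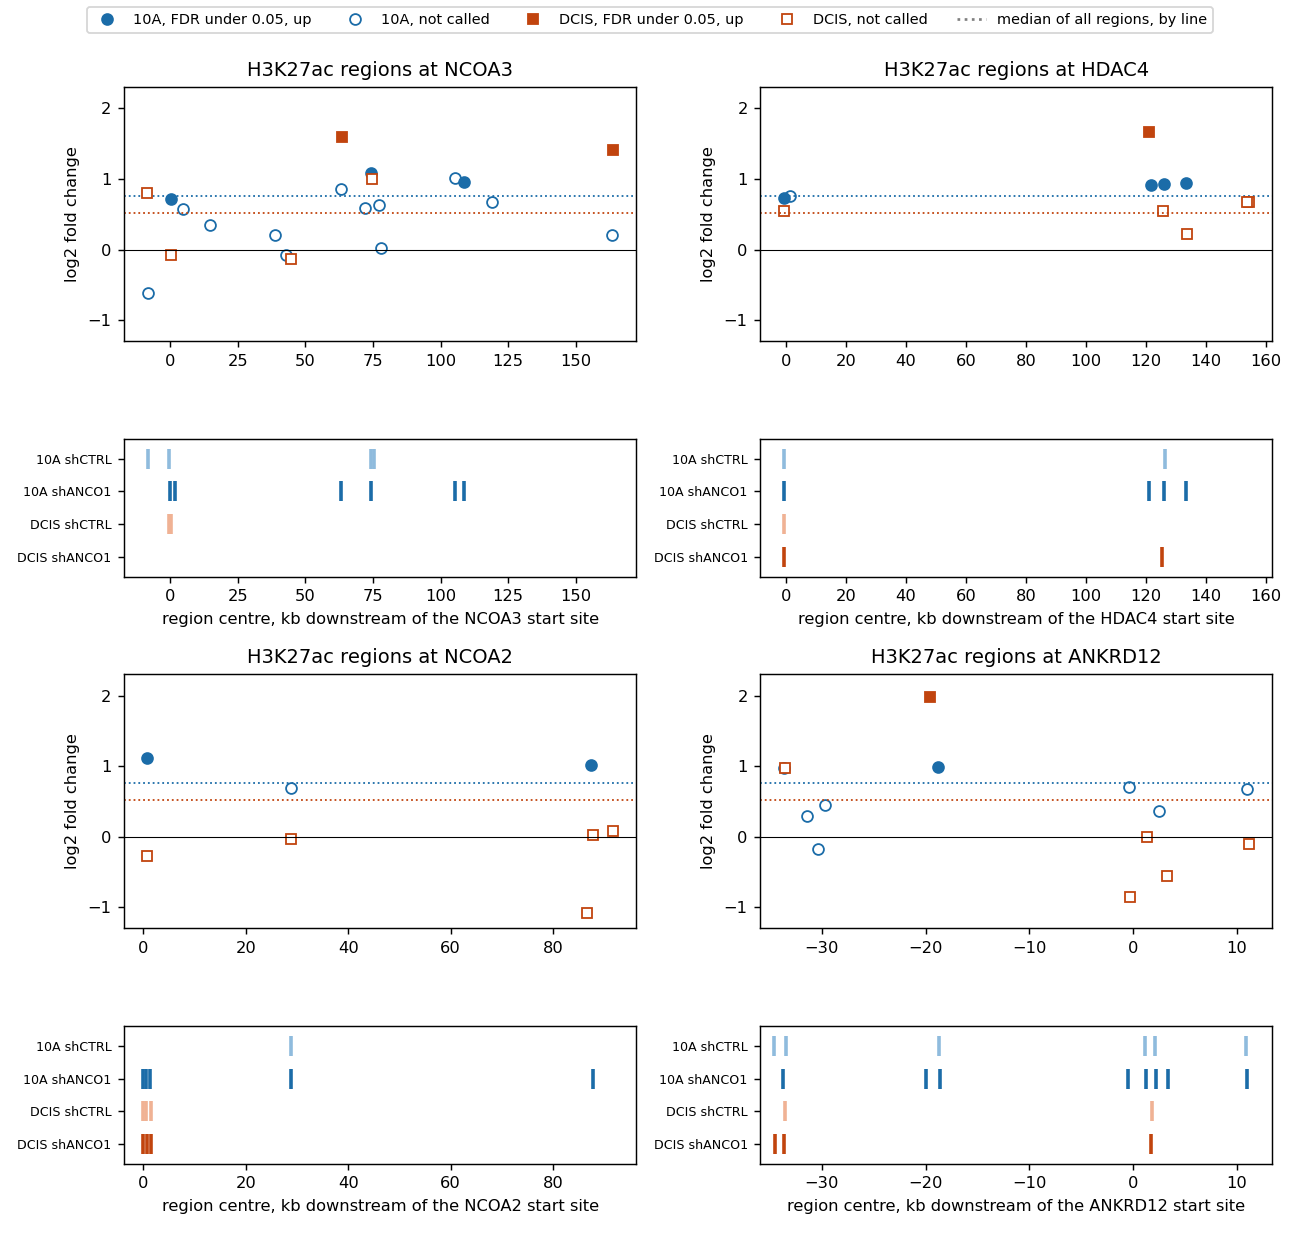
Log2 fold change of H3K27ac (shANCO1 over shCTRL, upper panels) and regions marked over input (lower panels) at NCOA3, HDAC4, NCOA2 and ANKRD12 by distance from each gene's start in kb, with 10A as circles, DCIS as squares, filled where called up, and dotted medians of all regions. At NCOA2 2 of 3 regions were called in 10A and 0 of 5 in DCIS, beside 43.6% and 23.6% of all regions called up. The ANKRD12 region called in both lines lay upstream of its start.

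Among the deacetylases, HDAC3 (ENSG00000171720, chr5:141620876-141636849, minus strand) had a single overlapping region, over its start. This region, chr5:141635601-141638200, had 1.04 in 10A (FDR 0.0109, 6 of 25 windows up) and its counterpart had 0.09 in DCIS (FDR 0.993). RELL2 starts in the opposite direction within the same region, so the 2 genes cannot be told apart here. A second region counted for HDAC3, called in 10A with 0.92 (FDR 0.00532), covers the start of DIAPH1, a formin gene downstream. The HDAC3 start was marked over input in 10A shANCO1 and in both DCIS groups.

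HDAC4 (ENSG00000068024, chr2:239048168-239401654, minus strand) rose at 4 of 5 regions in 10A (80%, against 43.6% of all regions). In DCIS 1 of 6 rose (16.7%, against 23.6%). In 10A the 4 called values were close together, from 0.73 to 0.95, and near the median of all regions, 0.76. The start, chr2:239401201-239402400, had the lowest of them (FDR 0.00381), under that median. The other 3 formed a group of intronic regions between 121.5 and 133.2 kb downstream of the start. Of these chr2:239278301-239280700 had 0.92 (FDR 0.00111, 20 of 23 windows up) and chr2:239273401-239276900 had 0.93 (FDR 0.00138, 24 of 34 windows up). In DCIS the first of these places was called with 1.67 at chr2:239279501-239280500 (FDR 0.00964, 5 of 9 windows up), and it holds the HDAC4 intron sequence printed above. The neighbouring DCIS intronic regions had 0.54 (FDR 0.746) and 0.22 (FDR 0.992), and the DCIS start had 0.54 (FDR 0.497). The HDAC4 start was marked over input in all 4 groups.

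HDAC5 (ENSG00000108840, chr17:44076746-44123702, minus strand) had no marked region over the gene in any of the 4 groups. All of its marked regions were neighbours, at the starts of LSM12 and G6PC3. The 1 place inside the gene that rose in both lines was an intron 27.6 kb downstream of the start. It had 0.97 in 10A at chr17:44095701-44096300 (FDR 0.012, 4 of 5 windows up) and 1.31 in DCIS at chr17:44095801-44096300 (FDR 0.047, all 4 windows up). The start had 0.52 in 10A (FDR 0.403) and -0.19 in DCIS (FDR 0.829). The other 10A region called for HDAC5, with 0.86 (FDR 0.00966), covers the LSM12 start.

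The share called up at starts was above the share away from starts in 10A and below it in DCIS, at these genes and over all regions. The difference between the lines was not tested. Taking the region nearest to the MANE start of each gene, 4 of 8 rose in 10A, those of NCOA2, NCOA3, HDAC3 and HDAC4, with all 8 values between 0.52 and 1.11. In DCIS 0 of 8 rose, with values between -0.85 and 0.54. Of the members' regions within 1 kb of any protein-coding start, 9 of 17 rose in 10A and 1 of 17 in DCIS, the latter over an internal start of ANKRD11. Those shares, 52.9% and 5.88%, stand beside 59.8% and 7.99% of all such regions. Away from starts 13 of 43 rose in 10A (30.2%, against 38.3% of all regions away from starts) and 12 of 31 in DCIS (38.7%, against 30.1%). The split by distance from starts at these genes was therefore near that of the whole tables.

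Of the 60 regions in 10A, 40 overlapped a region of the same gene in DCIS, and of all 10A regions 58.2% overlapped a DCIS region. Counted per 10A region, 8 were called up in both lines, 13 in 10A alone, 6 in DCIS alone and 13 in neither. These shares, 20%, 32.5%, 15% and 32.5%, lay near the 16.3%, 34.6%, 12.9% and 36.1% of all such pairs. The 8 lay at ANKRD11 (5), ANKRD12, HDAC4 and HDAC5. No overlapping pair at NCOA1, NCOA2, NCOA3 or HDAC3 was called in both lines. Across the 40 pairs Spearman's rho of the log2 fold changes was 0.304 and Pearson's r was 0.167. This describes pairs that share genes, neighbouring windows and, in some cases, a DCIS region, and carries no test.

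**Figure D4:**
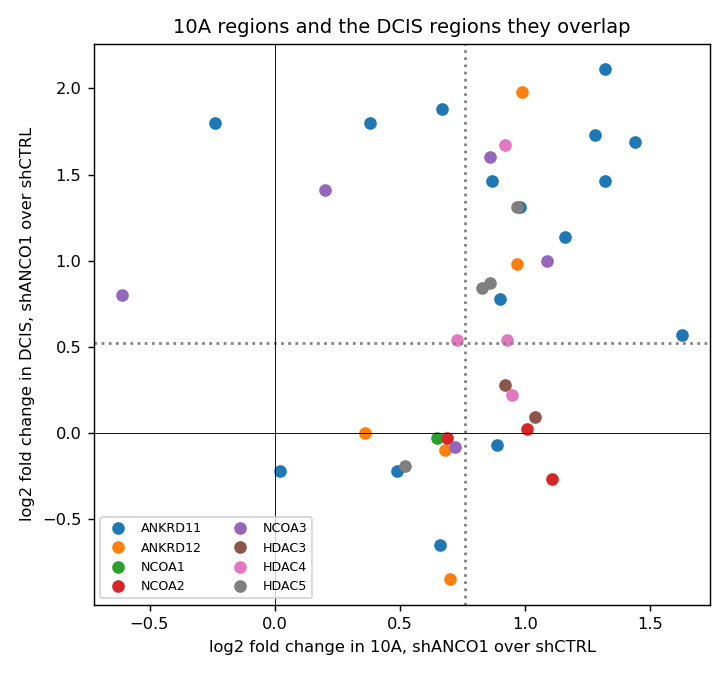
Log2 fold change of H3K27ac (shANCO1 over shCTRL) in 10A (horizontal axis) and DCIS (vertical axis) for the 40 regions of 10A at the 8 genes that overlapped a DCIS region, coloured by gene, with dotted lines at the medians of all regions, 0.76 and 0.52. Above both medians lay 9 of the 16 ANKRD11 points and 9 of the 24 points of the other genes. The NCOA1 point and all NCOA2 and HDAC3 points lay below the DCIS median. Some ANKRD11 points share a DCIS region, and the share above both medians over all such pairs was not worked out.

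Start sites were marked at more of the 8 genes in 10A shANCO1 than in 10A shCTRL. With a region over input within 1 kb of a start, 7 of 8 genes were marked in 10A shANCO1, against 48.2% of all protein-coding genes, and 3 of 8 in 10A shCTRL, against 26.3%. In DCIS it was 5 of 8 in shANCO1, against 36.2%, and 5 of 8 in shCTRL, against 35%. ANKRD12 and HDAC4 were marked in all 4 groups and HDAC5 in none. At ANKRD12 the nearest marked region lay 281 bp from the MANE start in 10A shANCO1. It lay 1020 bp away in 10A shCTRL, 1520 bp in DCIS shANCO1 and 1620 bp in DCIS shCTRL, where the mark was within 1 kb of another start only. The DCIS shANCO1 mark at ANKRD11 was at an internal start, since the nearest marked region lay 13561 bp from its main start.

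The marked length at the 8 genes was 32.1 kb in 10A shANCO1 and 9.9 kb in 10A shCTRL, and over whole tables it was 25252 kb and 9035 kb. In DCIS it was 9.2 kb in shANCO1 and 4.8 kb in shCTRL, with 11870 kb and 10958 kb over the whole tables. The median log2 fold change over input at the 8 genes was 3.37 and 3.35 in these 10A groups, beside 3.40 and 3.32 over the whole tables. In the DCIS groups it was 4.54 and 3.43, beside 4.47 and 4.09. Of the 18 regions marked in 10A shCTRL 17 overlapped one marked in 10A shANCO1, and of the 11 marked in DCIS shCTRL 9 overlapped one marked in DCIS shANCO1. The shares without a counterpart, 5.56% and 18.2%, stand beside 5.7% and 28.2% of all marked regions of those groups. The 2 without a counterpart in DCIS were both at the NCOA3 start. In the other direction 24 of 39 regions in 10A shANCO1 and 10 of 20 in DCIS shANCO1 had no counterpart, 61.5% and 50%, beside 58.3% and 35.4% of all marked regions of those groups. Of these, 14 of 24 and 6 of 10 overlapped a region called up in the direct comparison, 58.3% and 60%, beside 71% and 62.6% over the whole tables. All 6 in DCIS were at ANKRD11.

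**Figure D5:**
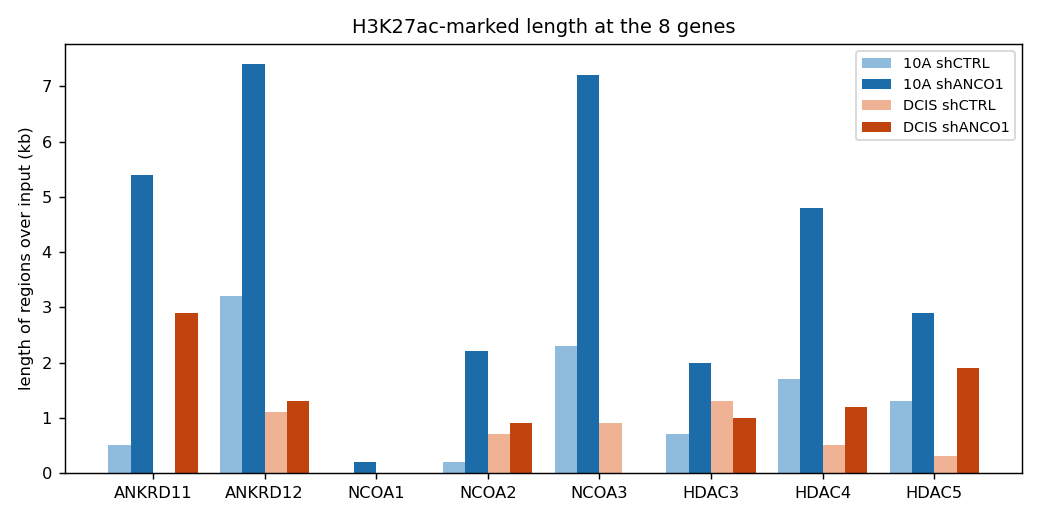
Total length of regions marked over input (kb, vertical axis) counted for each of the 8 genes (horizontal axis), 1 bar per group, with no error bars since a bar rests on 1 comparison of whole groups. ANKRD11 had 0 kb in DCIS shCTRL and 2.9 kb in DCIS shANCO1, and NCOA3 had 0.9 kb and 0 kb in those groups.

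Other genes of the same machinery had 104 regions in 10A and 87 in DCIS, over 34 genes in 4 lists. Of these, 43 rose and 0 fell in 10A (41.3% up, median 0.74), and 7 rose and 2 fell in DCIS (8.05% up, median 0.12). The median of all regions was 0.76 and 0.52, and the share called up was 43.6% and 23.6%. In 10A the 8 genes and these lists both lay near the background, and in DCIS the lists lay under it. Of all DCIS regions within 1 kb of a start 7.99% were called up (median 0.13), against 30.1% of the others (median 0.72). The lists were not split by distance from starts. The difference between the lists and the 8 genes was not tested.

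The other deacetylases rose at 17 of 44 regions in 10A (38.6%), and in DCIS 5 of 37 rose (13.5%) and 1 fell. Both shares called up were under those of all regions, 43.6% in 10A and 23.6% in DCIS. HDAC7, a further class IIa deacetylase, had the lowest FDR of that list in 10A with 1.74 (FDR 7.93e-08), and HDAC9, of the same class, had it in DCIS with 1.82 (FDR 3.14e-06).

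Acetyltransferase genes rose at 10 of 29 regions in 10A (34.5%), with the lowest FDR at EP300, 0.83 (FDR 0.000876). In DCIS 2 of 30 rose, both at KAT8 with 2.04 at the lowest FDR (0.000234), and 1 fell, at KAT2B, which encodes PCAF, with -1.22 (FDR 0.043). Genes of the PCAF/ADA complex rose at 8 of 18 regions in 10A (44.4%) and at 0 of 9 in DCIS. Cohesin genes rose at 8 of 13 (61.5%) and at 0 of 11. All regions were called up at 43.6% in 10A and 23.6% in DCIS, and those within 1 kb of a start at 59.8% and 7.99%. By FDR the first cohesin genes in 10A were SMC3, a core ring subunit, with 0.93 (FDR 0.000695), and WAPL, which releases cohesin from chromatin, with 1.83 (FDR 0.00133). All 7 cohesin genes had a marked start in 10A shCTRL, 10A shANCO1 and DCIS shCTRL, and 6 in DCIS shANCO1. Of all protein-coding genes 26.3%, 48.2%, 35% and 36.2% had a marked start in these groups, in the same order.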

How the data were processed

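H3K27ac and input libraries of 10A and DCIS cells with shANCO1 or shCTRL entered the authors' comparisons as groups of 3. Per the methods and the labels, the authors mapped reads to GRCh38 (BWA, Rsubread), deduplicated them using samtools and tested windows in csaw. The deposited tables hold, for each region, a p-value and its FDR (a q-value over the table), a log2 fold change of 1 representative window, and the number of windows tested, up and down. Scaling, the filter on windows, their merging and the inputs used for each group are not given in the sources used here. These columns are the authors' own comparisons, used because no values per library were at hand, so read depth, counting intervals and replicate spread are unknown.

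Regions were assigned by gene symbol in the deposited annotation, and called at FDR under 0.05 with the deposited direction. Distances, exons and start sites came from GENCODE release 44 (MANE Select for distances, basic protein-coding transcripts with 1 kb on each side for marking), promoters from RefSeq. Named were, for each gene and line, the promoter region, the region of lowest FDR, the called region of largest change and the region nearest the start, and at most 2 genes per list of related genes. For pairs between lines, the DCIS region of the same gene with most bases in common was taken. A list of related genes and the results at 1 further place are not reported here. The 8 genes and the lists were chosen with earlier results of these data known. Python 3.11.15, pandas 2.3.3 and scipy 1.17.1 were used, and the assignment was tested on simulated data. Alternatives were other FDR, size and window thresholds, centring, and overlapping genes only.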

Additional observations from a re-analysis of the deposited data

How the results depend on the processing

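No paired analysis was possible because the tables hold no values per library, and for the same reason no replicate could be left out. In 10A, the 22 regions called up became 10 when the absolute log2 fold change had to reach 1, and 0 when it had to reach 1 above the median of all regions. In DCIS, the 13 became 8 with FDR under 0.01, and 8 when the value had to reach 1 above that median. The count of regions called down stayed at 0 in both lines under every threshold tried. Marked regions fell from 39 to 16 in 10A shANCO1, from 18 to 7 in 10A shCTRL, from 20 to 4 in DCIS shANCO1 and from 11 to 2 in DCIS shCTRL when at least 5 windows were asked for, and to 8 in 10A shCTRL and 6 in DCIS shCTRL with FDR under 1e-10. The median log2 fold change of 0.71 in 10A was 0.70 with overlapping genes only, 0.75 as the median of the 8 medians per gene, 0.89 with at least 5 windows, and -0.06 relative to the median of all regions. In DCIS the median of 0.56 was 0.54, 0.34, 0.57 and 0.03 in the same order. With the region nearest the start in place of the annotated promoter, ANKRD11 went from 1.73 to -0.07 and HDAC5 from 1.31 to -0.19 in DCIS, and in 10A ANKRD11, ANKRD12 and HDAC5 lost their calls, with 0.66, 0.70 and 0.52. Here the 2 rules pick different regions of the gene. Read depth and the scaling between libraries, both unknown, limit what a missed call shows.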
